A study of Mus musculus with 22 samples.

Results

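The genes described here are the proteasome subunits, proteasome activators and proteasome assembly factors that were expressed in mpkCCD cells, immortalised mouse kidney cells of cortical collecting duct origin. They were chosen by name: symbols that begin with Psma to Psmg followed by a number, without the suffix that marks a pseudogene, and with a mean of at least 1 TPM (an RNA abundance per transcript length, scaled to the same total in every library) over 22 RNA-seq libraries. Of 54514 gene entries, 51 had such a name and 48 reached that mean. The 3 below it were Psmb8 (mean 0.190 TPM), Psmb11 (0.039 TPM) and Psma8 (0.02 TPM), and the nearest above it were Psmb9 (5.51 TPM) and Psme4 (7.55 TPM). The 48 genes comprised 7 alpha and 7 beta subunits of the 20S core, 2 inducible beta subunits of the immunoproteasome, 6 ATPases and 11 other subunits of the 19S regulatory particle, 6 activators or inhibitors and 7 assembly factors. The remaining 2, Psmc3ip and Psme3ip1, are named after a subunit or activator that they bind and are not proteasome subunits.

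All libraries came from the mpkCCDc11 secondary clone 38 grown on permeable supports, as whole cultures or as reporter clones made from that line. Unsorted wild-type (WT) cells without dDAVP gave 3 libraries and WT cells given dDAVP gave 3. dDAVP (desmopressin) is an agonist of the V2 vasopressin receptor. The other 16 libraries came from 4 clones with a GFP reporter, named C1, C11, C43 and C50. Every clone received dDAVP, and its cells without GFP and with GFP were each sequenced in 2 libraries. The series title gives the subject as variation of aquaporin-2 expression between cells. The labels name more than one dDAVP dose and duration without assigning them to libraries, so dose and time per library are not given here. Cells without dDAVP carry the label of no treatment, while the growth protocol speaks of a vehicle. Each reporter line is 1 clone, so a difference between clones describes these lines. What drives the GFP reporter is not given in the sources used here.

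The 26S proteasome is the protease complex that degrades ubiquitin-tagged proteins in the cytosol and nucleus. Its barrel-shaped 20S core holds 3 kinds of catalytic site, carried by Psmb5, Psmb6 and Psmb7, and the 19S particle recognises the ubiquitin chain, removes it and threads the substrate into the core by means of its ATPase ring. Interferon-gamma induces Psmb8, Psmb9 and Psmb10, which replace Psmb5, Psmb6 and Psmb7 in newly built immunoproteasomes and favour peptides for class I antigen presentation. The transcription factor Nfe2l1 raises proteasome gene transcription when proteasome activity falls, through antioxidant response elements in the promoters. In collecting duct cells, ubiquitin tagging is known to control the turnover of the water channel aquaporin-2 and of the epithelial sodium channel.

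To show the promoter sequence behind the genes whose values follow, the 250 bases before the annotated start were read from RefSeq promoter sequences (build GRCm38.p6), which held 41 of the 48 genes. Psmb1, Psmb2, Psmb7, Psmc3, Psmd3, Psmd7 and Psmg2 had no entry. The core of the antioxidant response element, TGACNNNGC on either strand, occurred in 5 of the 41 promoters (12.2%) against 10.1% of 27025 promoters of the same length. Those 5 are printed because Nfe2l1 acts through this element. Of the 41 genes with a promoter 22 were lower in GFP-positive cells (23.2% of all genes were), among them all 5 with this element, 8 of 14 with a CCAAT box and all 3 with an interferon response factor element, and nothing is read from these counts. Capitals mark the match, the strand is that of the gene, and up to 25 bases are shown on each side.
Psmb5, chr14:54618009-54618067, minus strand, first letter of the match 47 bases before the start: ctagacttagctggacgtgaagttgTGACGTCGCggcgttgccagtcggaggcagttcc
Psmb6, chr11:70525323-70525356, plus strand, 9 bases before the start: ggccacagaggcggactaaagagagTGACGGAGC
Psmd9, chr5:123228134-123228189, plus strand, 31 bases before the start: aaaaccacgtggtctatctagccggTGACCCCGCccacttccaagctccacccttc
Psmc6, chr14:45329574-45329630, plus strand, 227 bases before the start, match read on the other strand: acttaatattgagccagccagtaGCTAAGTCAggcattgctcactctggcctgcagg
Psmd12, chr11:107479278-107479314, plus strand, 247 bases before the start, match read on the other strand: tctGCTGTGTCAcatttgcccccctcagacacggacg
The promoter of the inducible subunit Psmb9 is printed whole, because Psmb9 varied most of the 48 genes. It held no match to the antioxidant element or to the interferon response factor element (a pair of GAAA blocks), and its 1 match to the CCAAT box (letters CCAAT, either strand), in capitals, began 8 bases before the start.
Psmb9, chr17:34187331-34187580, minus strand: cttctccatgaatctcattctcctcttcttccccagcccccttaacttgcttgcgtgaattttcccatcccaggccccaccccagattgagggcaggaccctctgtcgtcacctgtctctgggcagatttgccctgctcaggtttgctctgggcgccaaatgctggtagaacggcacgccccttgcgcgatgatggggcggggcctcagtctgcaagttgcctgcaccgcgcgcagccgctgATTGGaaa
CCAAT occurred in 14 of 41 promoters (34.1%) against 34.5% of all promoters, and the interferon response factor element in 3 of 41 (7.32%) against 3.04%. The cAMP response element TGACGTCA occurred in 0 of 41 against 1.62%. TGACGTCA and TGACNNNGC overlap in their first letters, and the match in Psmb5 holds TGACGTC. A match describes the letters in this window, and binding was not measured.

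Libraries listed 17177 to 31292 genes above 0 and 12293 to 14341 genes at 1 TPM or more, and sequencing depth is unknown because TPM do not keep it. GFP was at 5.31 to 17.6 TPM in the GFP-negative libraries and at 1065 to 1567 TPM in the GFP-positive ones. Of 12 principal-cell markers, 9 had a mean of at least 1 TPM, with a summed level of 620 to 10797 TPM, while Elf5 and Scnn1b stayed under 1 TPM in every library. Fibroblast and endothelial markers were at or near 0: 0 of 6 fibroblast and 0 of 4 endothelial markers reached a mean of 1 TPM (summed levels of at most 1.53 and 1.57 TPM). Of 10 immune-cell markers, 2 did, Csf1r and Cd68, with the list summing to 12.2 to 32.0 TPM and the pan-leukocyte gene Ptprc at no more than 1.87 TPM. Of 6 intercalated-cell markers 2 reached that mean (Slc4a9 and Atp6v1b1, the latter at 19.4 to 110.1 TPM, list sum 21.5 to 112 TPM), and of 4 proximal-tubule markers 1 did (Lrp2, list sum 0.94 to 16.1 TPM). Ribosomal-protein transcripts took 3.85% to 6.12% of TPM in 21 libraries and 8.32% in C50 GFP-negative replicate 1, a library that also stood apart in the 20S core (summed level of 6852 TPM there and at most 5390.5 TPM elsewhere). No 2 libraries held identical values. Nothing in the labels says that replicates were separate cultures, so p-values measure the spread between these libraries, which may be technical.

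The 48 genes together took 0.807% to 1.23% of all TPM, with a median of 0.918%. By summed mean TPM the beta ring was highest (2628), followed by the alpha ring (2070) and the 19S subunits other than ATPases (2061), then the 19S ATPases (1196). The activators and the inhibitor summed to 892 TPM, the assembly factors to 477 TPM and the 2 inducible subunits to 54.3 TPM. Within the core, mean TPM per gene ran from 144 for Psmb7, the trypsin-like subunit, to 761 for Psmb6, the caspase-like subunit. The range over the 22 libraries differed between these genes. The ATPase Psmc4 had the smallest range, with a highest value 1.35 times the lowest (153 to 207 TPM), followed by the assembly chaperone Psmd10 at 1.42 times. The 3 widest ranges belonged to the core assembly chaperone Psmg3 (3.11 times, 47.2 to 147 TPM), Psmc3ip (3.15 times) and Psmb9 (8.60 times, 1.47 to 12.6 TPM).

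In TPM, the summed 19S level separated the sorted fractions, while the summed 20S levels overlapped. The 17 subunits of the 19S particle summed to 3252 ± 31.5 TPM (SD, n = 3) in WT cells without dDAVP and 3319.5 ± 71.3 TPM in WT cells with dDAVP. In the clones the GFP-negative means were 3343 ± 6.63 (SD, n = 2) in C1, 3495 ± 27.4 in C11 and 3614 ± 101 in C43, with 3629 ± 177 TPM in C50. The GFP-positive means were 2826 ± 15.1 in C1, 3087 ± 32.4 in C11 and 3062 ± 25.7 in C43, with 2923 ± 3.97 TPM in C50. All 8 GFP-positive libraries lay below all 8 GFP-negative libraries in this sum of TPM, and below all 6 WT libraries. This separation did not hold after median-ratio scaling, where the 19S sum ran from 2935 to 3421 in GFP-positive, from 3129 to 4455 in GFP-negative and from 2724 to 3494 in WT libraries, with overlap within C11. The 14 constitutive 20S subunits summed to 4213 ± 321 TPM in WT cells without dDAVP and 4756 ± 403 TPM with it. Their GFP-negative sums were 4395 ± 179 in C1, 4953 ± 318 in C11 and 5312 ± 17.2 in C43, with 6121 ± 1034 TPM in C50, where the replicates were 6852 and 5390.5 TPM. Their GFP-positive sums were 4031 ± 114 in C1, 4549 ± 27.5 in C11 and 4634 ± 143 in C43, with 4229.6 ± 117 TPM in C50. Each clone's GFP-positive libraries lay below its own GFP-negative libraries, while the fractions overlapped across clones, and with median-ratio scaling they also overlapped within C1 and C11. These sums are descriptions without a test.

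**Figure D1:**
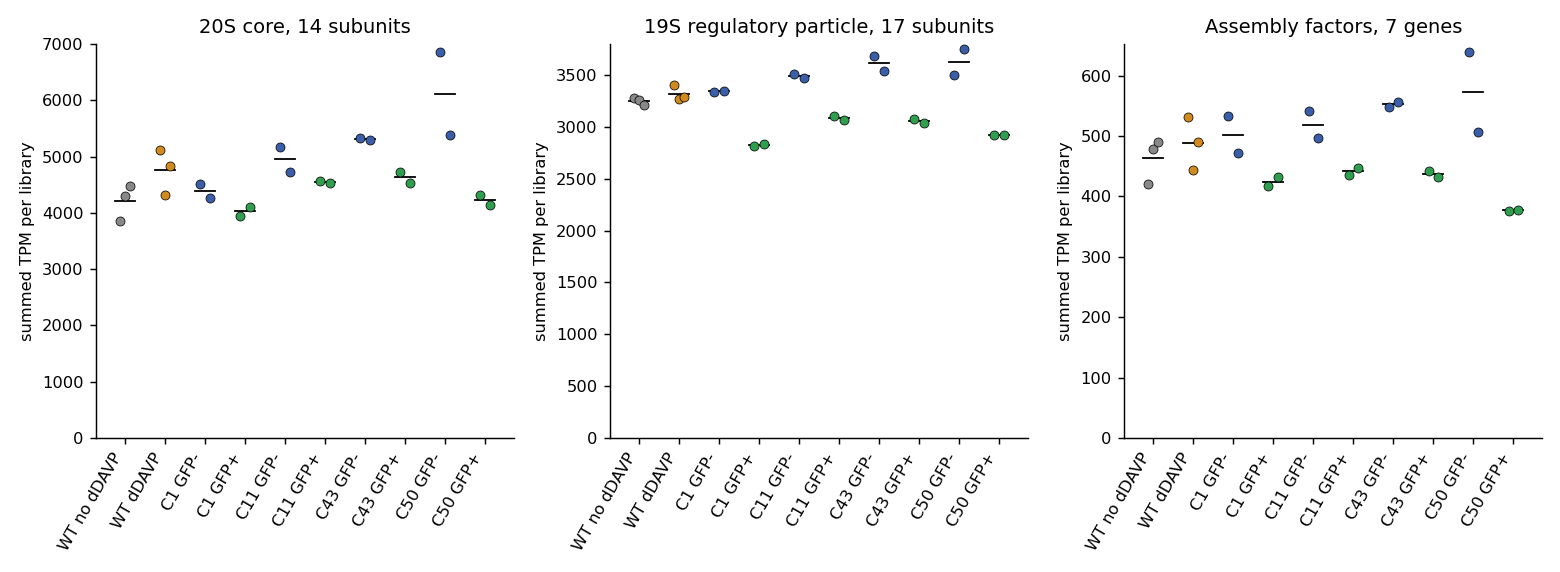
Summed TPM per library (points) and group mean (lines) for the 20S core, the 19S particle and the assembly factors in the 10 sample groups, 3 libraries per WT group and 2 per clone and fraction. The 19S sums of the GFP-positive libraries in TPM lie below those of every GFP-negative and WT library, which they do not after median-ratio scaling, and C50 GFP-negative replicate 1 is highest in the 20S panel at 6852 TPM.

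The first comparison asked what dDAVP did to these genes in unsorted WT cells. None of the 46 subunits, activators and assembly factors passed the test (limma on log2(TPM + 1), Benjamini-Hochberg adjusted p under 0.05 over all 13494 genes tested). Of all 48 names 1 passed, Psmc3ip, against 8.88% of all genes in either direction (2.37% higher and 6.51% lower), and 4 of 48 had an unadjusted p under 0.05. Some alternatives called subunits higher. With median-ratio scaling Psmc5 was (0.40, adjusted p = 0.0383), where 4.26% of all genes were called higher. With the number of genes detected as a covariate Psmc5, Psma2 and Psmb3 were, against 3.95% of all genes called higher and 19.96% in either direction. With a correction for transcript length Psmc5 and Psme2 were, against 5.78% higher. The median log2 change of the 48 genes was 0.07 while that of all genes was -0.16. With the libraries rescaled by median ratios, the median of the 48 genes was 0.24, while that of all genes was close to 0. Of the calls over all genes 26.7% were higher ones in these TPM and 63.7% with median-ratio scaling.

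The core subunits had positive values in WT cells, of which 0 passed limma and 1, Psmb4, had an unadjusted p under 0.05. All 14 constitutive 20S genes had a log2 change above 0 (0.06 to 0.26, median 0.18), also with median-ratio scaling (median 0.35), while quantile normalization left 13 of 14 above 0 (median 0.11). With median-ratio scaling 11 of the 14 had an unadjusted p under 0.05 and 0 were called. With the covariate, where 19.96% of all genes were called, 8 had such a p and 2 were called (Psma2 by 0.32, adjusted p = 0.0370, and Psmb3 by 0.30, 0.0391). How many of all genes had an unadjusted p under 0.05 was not counted, in this or any other comparison. The summed 20S levels of the WT groups overlapped, at 3856 to 4478 TPM without and 4319 to 5112 TPM with dDAVP. The 19S genes had a median of 0.03, with 11 above 0 and 6 below. With median-ratio scaling their median was 0.21, with 16 of 17 above 0, 9 at an unadjusted p under 0.05 and 1 called. The lowest adjusted p among subunits was that of the ATPase Psmc5, whose 3 libraries without dDAVP held 191, 191 and 191 TPM and whose 3 libraries with dDAVP held 235, 218 and 222 TPM. Its groups did not overlap, and its log2 change was 0.23 ± 0.062 (SE) with a limma adjusted p of 0.0605. Psme2, a subunit of the PA28 activator that opens the core, had 201, 239 and 240.1 TPM without and 292, 251 and 299.7 TPM with dDAVP. These groups did not overlap either, with a log2 change of 0.31 ± 0.103 and a limma adjusted p of 0.0956. Psmc5 and Psme2 were singled out after their values were seen. Across the 48 genes, 6 had all dDAVP libraries above all others, against 7.12% of all genes, and 3 had all of them below, against 28.7% of all genes.

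Psmc3ip, a partner of Psmc3 that is known from meiotic recombination, was the 1 called name. It was at 49.2, 47.1 and 53.8 TPM without dDAVP and at 38.7, 34.7 and 36.2 TPM with it. The groups did not overlap (50.0 ± 3.41 against 36.6 ± 2.03 TPM, SD, n = 3), and Psmc3ip fell by 0.44 ± 0.087 (SE) on the log2 scale with a limma adjusted p of 0.0272. Over 16 alternatives the adjusted p ran from 0.0117 to 0.163, and 10 of them ended the call. Leaving out any WT library but dDAVP replicate 2 was among those that did, and without that replicate 3 of the 48 names were called, against 15.2% of all genes: Psmc3ip lower, and Psmc5 and Psme2 higher.

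In the reporter clones, the question was whether cells that switched the reporter on differed from those that did not, with dDAVP in both. Subunits of the core and of the regulatory particle were lower in GFP-positive cells, together with 4 assembly factors, while Psmb10 was higher. Of the 48 genes 28 passed (limma with clone as a covariate, 13113 genes tested), against 35.3% of all genes: 27 were lower, against 23.2% of all genes, and 1 was higher, against 12.1%. The median log2 change was -0.23 over the 48 genes and -0.06 over all genes, and with median-ratio scaling -0.15 and 0.01. Of the 27 lower genes, 24 were lower in 8 of 8 same-numbered pairs of libraries, which 15.1% of all genes were. The numbers name libraries only, so these pairs are an arbitrary matching, here and for single genes below. The 8 libraries of each fraction did not overlap for 10 genes, all lower, against 4.72% of all genes, and for 0 genes that were higher, against 1.26%. With median-ratio scaling 17 of the 48 were called against 35.7% of all genes, a like share, of which 15 were lower (17.5% of all genes) and 2 higher (18.2%). With each clone's mean as 1 replicate 12 were called against 18.3% of all genes, all lower (12.4%). The calls among all genes were 34.2% higher ones in these TPM and 51.1% with median-ratio scaling. In bulk RNA of a fraction, fewer cells of a type and less RNA per cell cannot be told apart.

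In the core particle 9 of 14 constitutive subunits were lower, against 23.2% of all genes, with a median log2 change of -0.23. Psmb3, a structural beta subunit, fell most (by 0.56 ± 0.086), from a mean of 408 ± 72.8 TPM (SD, n = 8) in GFP-negative to 274 ± 29.8 TPM in GFP-positive libraries, with a limma adjusted p of 0.000157. Among the alpha subunits, which form the gate of the barrel, Psma3 and Psma5 each fell by 0.38, Psma1 by 0.24 and Psma4 by 0.17. Of the subunits that did not pass, Psma2 had a log2 change of -0.19, Psma6 of -0.14, Psma7 of 0.02, Psmb1 of -0.09 and Psmb4 of -0.17. Psmb2, a structural beta subunit, fell by 0.22. Core transcripts were short: the median over these 14 genes of the longest coding transcript was 1162.5 bases, against 1819 for the 19S genes and 2773 for all genes tested. After a correction for transcript length, an alternative added after the data were seen, 6 core genes were lower and 1 was higher, against 21.1% of all genes in each direction. The median of the 48 genes was then -0.11 and that of all genes 0.003, against -0.06 over all genes without the correction. Median-ratio scaling left 3 of the 14 lower, against 17.5% of all genes. With each clone's mean as 1 replicate 4 of the 14 were lower, as were 1628 of 13113 genes.

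In the regulatory particle 13 of 17 subunits were lower, against 23.2% of all genes, with a median log2 change of -0.28. All 6 ATPases of the ring that unfolds substrates fell: Psmc2 by 0.45 ± 0.061, Psmc3 by 0.36, Psmc6 by 0.32, Psmc4 by 0.22, Psmc1 by 0.21 and Psmc5 by 0.19. Among the other subunits, Psmd4, a ubiquitin receptor, fell by 0.35, and Psmd14, the deubiquitinase of the lid, fell by 0.31. The lid subunits Psmd13, Psmd7, Psmd8, Psmd12 and Psmd6 fell by 0.28 to 0.31. The 4 that did not pass were Psmd2 (-0.25, limma adjusted p = 0.0631), Psmd1 (-0.23, adjusted p = 0.0579), Psmd11 (-0.03) and Psmd3 (0.08). Psmd1 and Psmd2 are the large scaffold subunits of the base. With median-ratio scaling 8 of the 17 were lower (17.5% of all genes), with quantile normalization 13 (19.2%), and with the length correction 10 (21.1%). With each clone's mean as 1 replicate 4 of the 17 were lower, as were 1628 of 13113 genes.

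**Figure D2:**
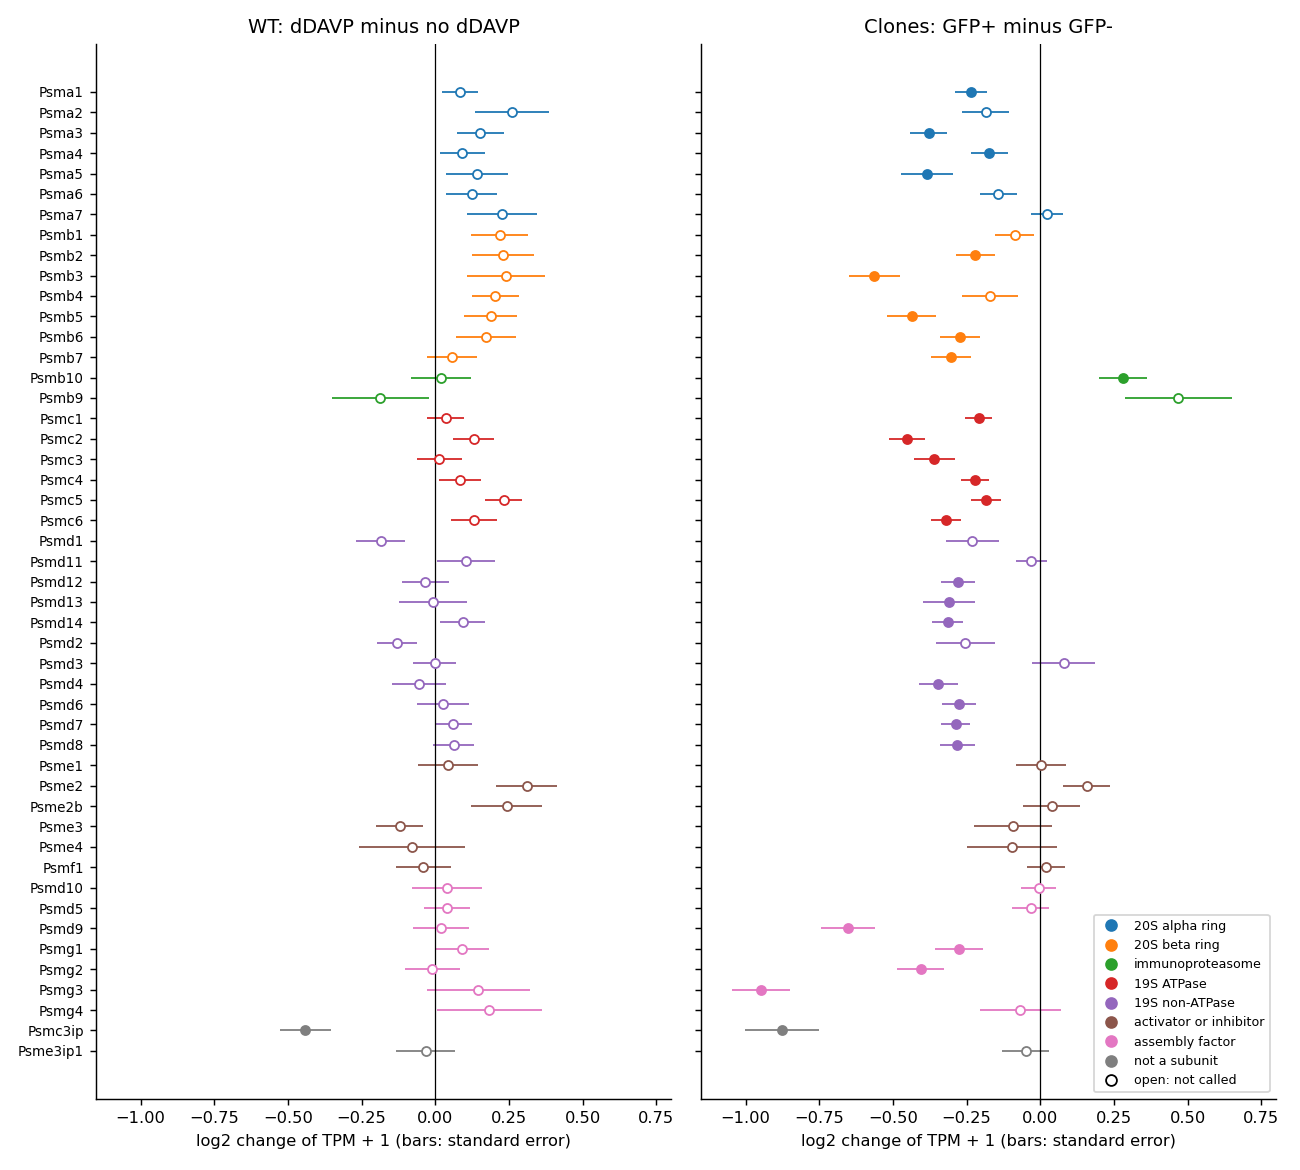
Log2 change of TPM + 1 (points) with its standard error (bars) for each of the 48 genes, coloured by role, in WT cells (dDAVP minus no dDAVP, 3 libraries per group) and in the clones (GFP-positive minus GFP-negative, 8 libraries per fraction). Filled points passed an adjusted p under 0.05: 1 in WT cells and 28 in the clones, of which 27 lie below 0 and Psmb10 above.

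The largest fall among the 48 genes was in an assembly factor, Psmg3. It belongs to the Psmg3 and Psmg4 chaperone pair that helps to build the alpha ring. In the GFP-negative libraries it was at 103 and 91.6 TPM in C1, 107 and 85.3 in C11 and 108 and 102 in C43, with 147 and 104 TPM in C50. In the GFP-positive libraries it was at 52.0 and 61.9 TPM in C1, 60.4 and 59.2 in C11 and 50.7 and 47.2 in C43, with 50.8 and 50.0 TPM in C50. Every GFP-positive library was below every GFP-negative one, and the fall was 0.95 ± 0.0996 (SE) on the log2 scale with a limma adjusted p of 5.95e-06. The WT libraries reached down to the GFP-positive range and up to the GFP-negative range, at 60.7, 80.3 and 84.3 TPM without and 100.3, 67.1 and 83.1 TPM with dDAVP. The partner Psmg4 did not pass, with a log2 change of -0.07 and an adjusted p of 0.749, although it was higher in 6 of 8 pairs.

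Psmd9, a chaperone of the ATPase ring of the 19S base, was at 77.2 and 58.8 TPM in C1, 58.3 and 61.7 in C11 and 63.7 and 62.9 in C43, with 77.2 and 58.4 TPM in C50 in GFP-negative cells. In GFP-positive cells it was at 49.1 and 50.6 TPM in C1, 40.1 and 45.0 in C11 and 39.6 and 33.5 in C43, with 37.2 and 33.3 TPM in C50. The fractions did not overlap, and Psmd9 fell by 0.65 ± 0.092 (limma adjusted p = 7.66e-05). The other chaperones of the base, Psmd5 (-0.03) and Psmd10 (-0.01), did not pass. Of the Psmg1 and Psmg2 pair, which guides alpha-ring formation, Psmg2 fell by 0.41 and Psmg1 by 0.27. The call of Psmg3 and that of Psmd9 held in each of 31 alternatives.

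Psmc3ip was also lower in GFP-positive cells. GFP-negative libraries held 41.5 and 45.4 TPM in C1, 57.6 and 53.8 in C11 and 58.5 and 53.3 in C43, with 69.4 and 57.1 TPM in C50. GFP-positive libraries held 34.0 and 38.6 TPM in C1, 28.8 and 29.1 in C11 and 24.8 and 31.4 in C43, with 25.9 and 22.1 TPM in C50. The fractions did not overlap, with the smallest gap in C1, and the fall was 0.88 ± 0.126 (limma adjusted p = 8.93e-05). Psme3ip1 did not pass (-0.05).

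Of the 6 activators and inhibitors, 0 were called by limma, against 35.3% of all genes, and 0 had an unadjusted p under 0.05. Their median log2 change was 0.01. Quantile normalization, the length correction and leaving out clone C50 each called 1 of the 6 higher. Over all genes 2560 of 13113, 2733 of 12946 and 1429 of 13133 were then called higher. Psme1 and Psme2, the PA28 alpha and beta subunits that interferon induces, had log2 changes of 0.00 and 0.16. Psme3, the nuclear PA28 gamma, had -0.09, Psme4 (PA200) had -0.10 and the inhibitor Psmf1 had 0.02. Psme2b had 0.04, and since it is a near-identical copy of Psme2, how reads were divided between these copies is uncertain. Whether the activators differed from the subunits was not tested.

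The catalytic subunits and their inducible counterparts are given in turn for the sorted fractions: the 3 catalytic subunits fell and Psmb10 rose. Psmb5, the chymotrypsin-like subunit and target of bortezomib, was at 248, 286 and 290.1 TPM in WT cells without and 336, 287 and 315 TPM with dDAVP. Its GFP-negative libraries held 362 and 311 TPM in C1, 374 and 321 in C11 and 331 and 319.6 in C43, with 580.4 and 417 TPM in C50. Its GFP-positive libraries held 255 and 296 TPM in C1, 291 and 285 in C11 and 231 and 234 in C43, with 307 and 293 TPM in C50. Within each clone the fractions did not overlap, and over all clones every GFP-positive library was below every GFP-negative one. Psmb5 fell by 0.44 ± 0.082 (limma adjusted p = 0.000825), a call that held in each of 31 alternatives, and its WT change was 0.19 ± 0.091 (adjusted p = 0.207).

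Psmb6 was at 605, 702 and 757 TPM in WT cells without and 834, 711 and 776 TPM with dDAVP. Its GFP-negative libraries held 649.6 and 659 TPM in C1, 862 and 762 in C11 and 904 and 878 in C43, with 1165 and 919 TPM in C50. Its GFP-positive libraries held 594 and 618 TPM in C1, 729 and 733 in C11 and 733 and 717 in C43, with 751 and 682 TPM in C50. Each clone's GFP-positive libraries were the lower ones, and the fractions overlapped across clones because C1 was low in both. Psmb6 fell by 0.27 ± 0.067 (limma adjusted p = 0.00551), and median-ratio scaling (adjusted p = 0.207) or clone means (0.0936) ended the call. The WT change was 0.17 ± 0.100 (adjusted p = 0.281).

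Psmb7 was at 129, 137 and 132 TPM in WT cells without and 148, 124 and 143 TPM with dDAVP. Its GFP-negative libraries held 144 and 144 TPM in C1, 143 and 151 in C11 and 189 and 170.1 in C43, with 185 and 183 TPM in C50. Its GFP-positive libraries held 124 and 126 TPM in C1, 138 and 134 in C11 and 154 and 129 in C43, with 118 and 131 TPM in C50. Again each clone's GFP-positive libraries were below its GFP-negative ones, with overlap across clones. Psmb7 fell by 0.30 ± 0.068 (limma adjusted p = 0.00281), and median-ratio scaling (0.0827) or clone means (0.0825) ended the call. Its WT change was 0.06 ± 0.085 (adjusted p = 0.669).

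Psmb10, the inducible counterpart of Psmb7, was at 43.9, 49.9 and 45.3 TPM in WT cells without and 51.9, 42.1 and 47.1 TPM with dDAVP. Its GFP-negative libraries held 38.3 and 33.3 TPM in C1, 49.2 and 41.6 in C11 and 48.3 and 52.9 in C43, with 45.8 and 46.0 TPM in C50. Its GFP-positive libraries held 37.9 and 44.9 TPM in C1, 68.5 and 72.5 in C11 and 61.9 and 57.2 in C43, with 47.5 and 48.4 TPM in C50. The GFP-positive libraries were above the GFP-negative ones in C11, C43 and C50, with the widest gap in C11, and overlapped them in C1. Psmb10 rose by 0.28 ± 0.082 (limma adjusted p = 0.0149, higher in 7 of 8 pairs), and was the 1 gene of the 48 with a positive change in all 4 clones. The change was largest in C11 (0.63) and was 0.20 in C1, 0.23 in C43 and 0.06 in C50. Without C11 the pooled change was 0.17 (adjusted p = 0.158), while without C43 it was 0.30 and also did not pass (0.0588), and with clone means the adjusted p was 0.145. Its WT change was 0.02 ± 0.101 (adjusted p = 0.914).

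Psmb9, the inducible counterpart of Psmb6, was at 4.70, 5.84 and 5.42 TPM in WT cells without and 5.13, 3.75 and 4.82 TPM with dDAVP. Its GFP-negative libraries held 5.55 and 4.99 TPM in C1, 3.42 and 3.01 in C11 and 8.86 and 4.84 in C43, with 2.52 and 2.04 TPM in C50. Its GFP-positive libraries held 6.68 and 6.08 TPM in C1, 9.48 and 8.11 in C11 and 12.6 and 9.71 in C43, with 2.08 and 1.47 TPM in C50. GFP-positive libraries were the higher ones in C1, C11 and C43, while the fractions overlapped in C50. The pooled log2 change was 0.47 ± 0.183 and did not pass (limma adjusted p = 0.0601, higher in 6 of 8 pairs). It passed without clone C50 (0.71, adjusted p = 0.00687), without C50 GFP-negative replicate 1 (0.55, 0.0183) or GFP-positive replicate 2 (0.56, 0.0259), and with median-ratio scaling (0.54, 0.0491), quantile normalization (0.56, 0.0437) or the length correction (0.61, 0.00934). The WT change was -0.19 ± 0.164 (adjusted p = 0.454).

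Psmb8, the inducible counterpart of Psmb5, was under the 1 TPM limit for testing. It was listed at 0.28, 0.14 and 0 TPM in WT cells without and 0, 0.48 and 0.53 TPM with dDAVP. Among GFP-negative libraries it was listed at 0 and 0 TPM in C1, 0 and 0.28 in C11 and 0.72 and 0.06 in C43, with 0 and 0.48 TPM in C50. Among GFP-positive libraries it was listed at 0 and 0.05 TPM in C1, 0.11 and 0 in C11 and 0.59 and 0.18 in C43, with 0 and 0.27 TPM in C50. These low values overlapped between every pair of groups compared.

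**Figure D3:**
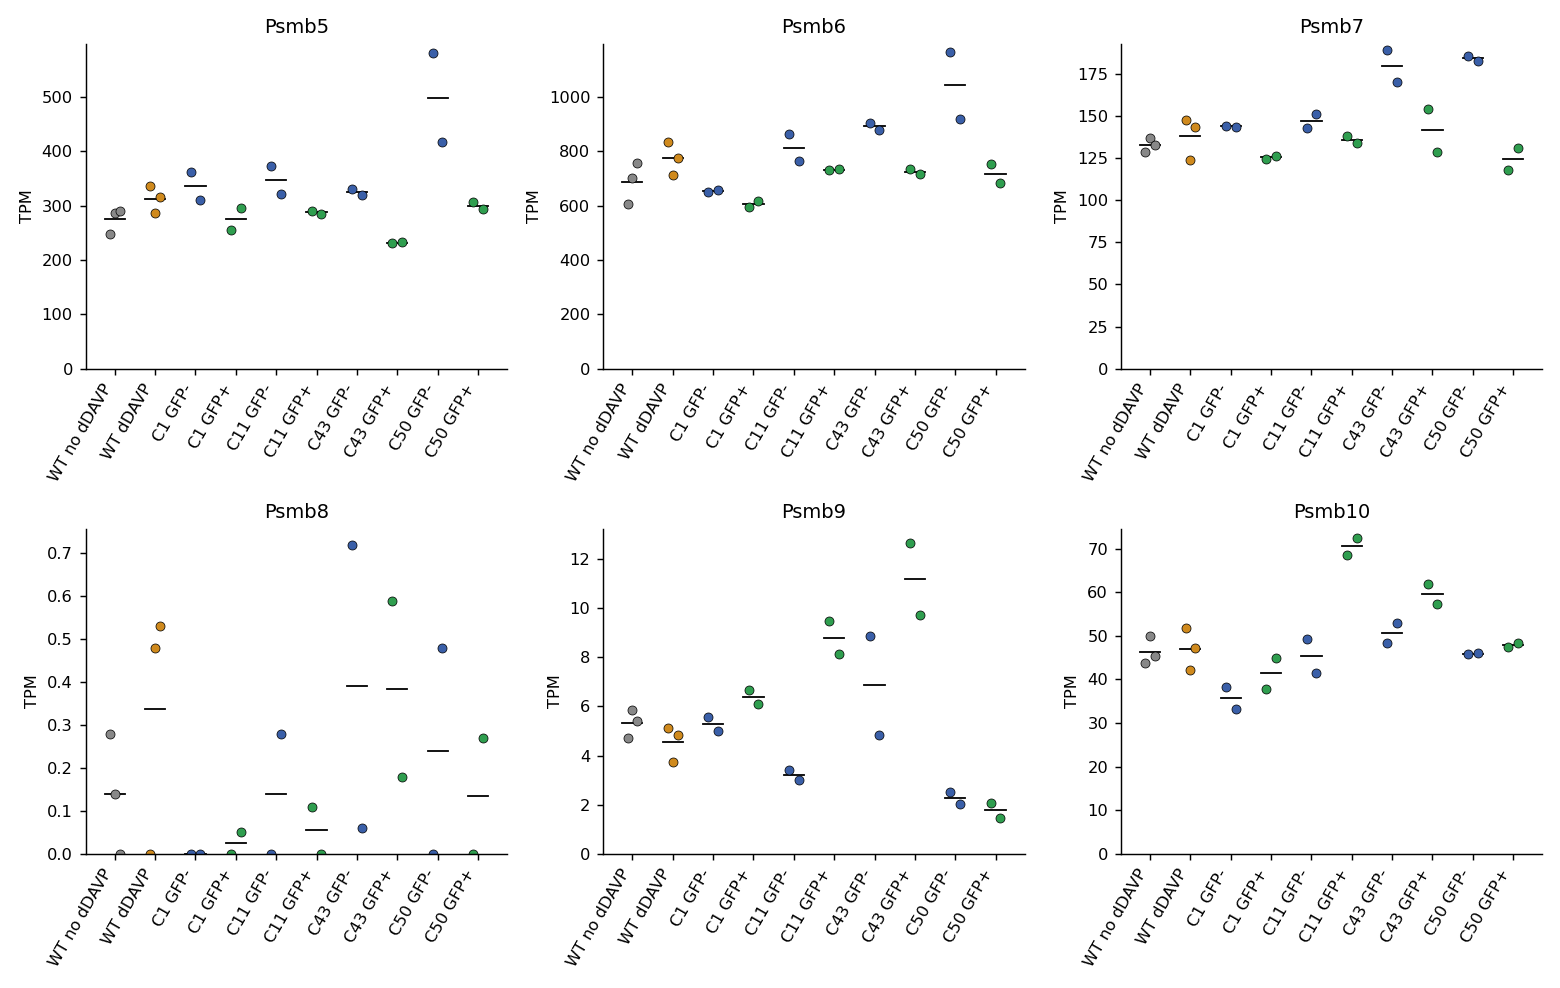
TPM per library (points) and group mean (lines) of the constitutive catalytic subunits (upper row) and their inducible counterparts (lower row, in the order Psmb8 for Psmb5, Psmb9 for Psmb6, Psmb10 for Psmb7), with 3 libraries per WT group and 2 per clone and fraction. In each clone the GFP-positive libraries of the upper row lie below the GFP-negative ones, while Psmb10 reaches 68.5 and 72.5 TPM in C11 GFP-positive cells.

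As a level relative to its constitutive counterpart in TPM, Psmb10 was 24.9% ± 2.45 of Psmb7 in C1 GFP-negative cells (SD, n = 2) and 33.0% ± 3.57 in C1 GFP-positive cells. The same ratio went from 31.0% ± 4.89 to 51.9% ± 3.17 in C11, from 28.3% ± 3.94 to 42.3% ± 2.97 in C43 and from 24.9% ± 0.32 to 38.6% ± 2.31 in C50. WT cells had 34.9% ± 1.35 without and 34.0% ± 1.15 with dDAVP (n = 3). The ratio of the GFP-positive libraries was above that of the GFP-negative libraries within each clone, C50 included, where Psmb10 itself barely differed and Psmb7 was lower. Psmb9 was 0.81% of Psmb6 in C1 GFP-negative cells and 1.05% in C1 GFP-positive cells, 0.40% and 1.20% in C11, 0.77% and 1.54% in C43, and 0.22% and 0.25% in C50. In WT cells it was 0.77% without and 0.59% with dDAVP. These ratios were not tested.

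Within single clones, most calls among the 48 genes were in C50, core subunits included. In C1 3 of 48 were called, against 7.22% of all genes, and all were lower (4.91% of all genes): Psmc2, Psmd4 and Psmg3. In C11 6 were called, against 7.94%: Psmc3ip, Psmc6, Psmd14 and Psmg3 were lower (5.7% of all genes), while Psmb9 (log2 change 1.21 ± 0.251, limma adjusted p = 0.0139) and Psmb10 (0.63 ± 0.128, 0.0127) were higher (2.23%). In C43 10 were called, against 16.3%, all lower (12% of all genes were lower and 4.29% higher), 3 of them in the core and 4 in the 19S particle. In C50 29 were called, against 26.6% of all genes, all lower (13.8%, with 12.8% higher): 13 of 14 core subunits and 11 of 17 subunits of the 19S particle. The core median was -0.54 in C50, against -0.11 in C1, -0.13 in C11 and -0.18 in C43, and that of the 19S genes was -0.31 in C50, against -0.23, -0.21 and -0.25. The median over all genes was 0.09 in C50, -0.06 in C1, -0.12 in C11 and -0.16 in C43. Without C50 GFP-negative replicate 1 the median over all genes in C50 was -0.09 and that over the 48 genes -0.34, against -0.40 with it. The core median in C50 was then -0.35 and the 19S median -0.42. Without replicate 2 instead, the C50 medians were 0.27 over all genes, -0.50 over the 48, -0.68 over the core and -0.31 over the 19S genes. With median-ratio scaling the core median was -0.64 in C50, -0.03 in C1, 0.02 in C11 and 0.00 in C43. The 19S median was then -0.41 in C50, with 12 of 17 called, and -0.14, -0.06 and -0.07 in the other clones, with 0 of 17 called in each. Of all 13113 genes 3864 were called in C50 with that scaling, 989 in C1, 994 in C11 and 2084 in C43. Psmg3 was called lower in each of the 4 clones (by 0.76 in C1, by 0.67 in C11, by 1.09 in C43 and by 1.27 in C50), as were 2.14% of all genes, and 12 genes were called lower in at least 2 clones, as were 9.43% of all genes.

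**Figure D4:**
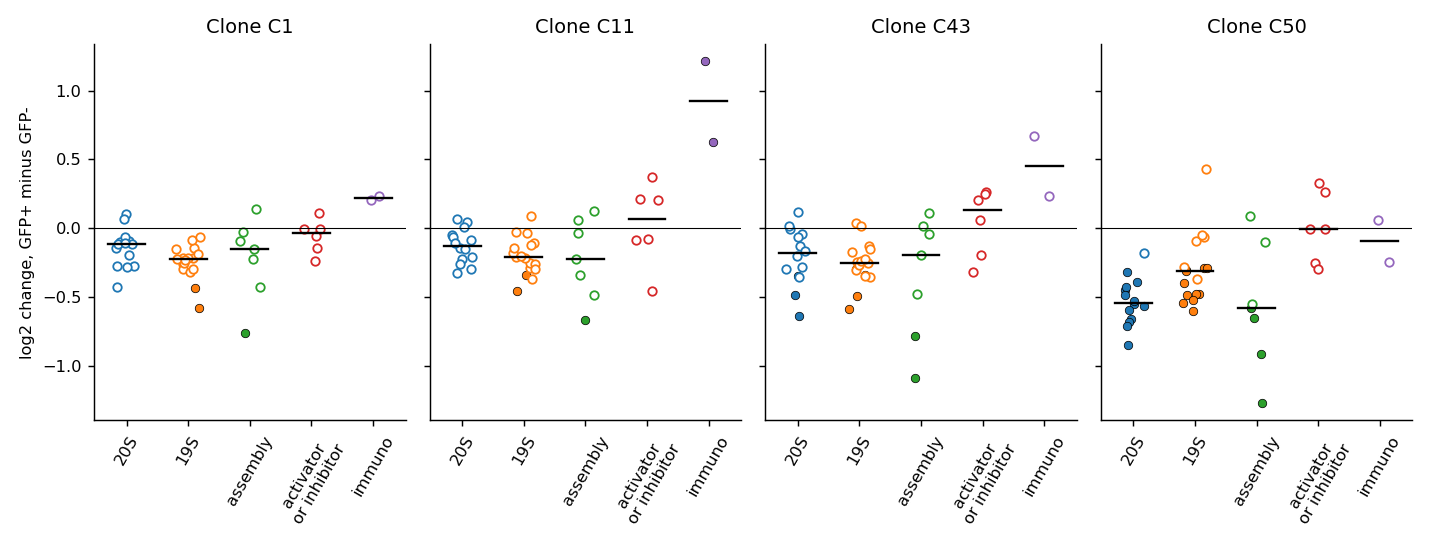
Log2 change of TPM + 1, GFP-positive minus GFP-negative, in each clone (2 libraries per fraction), 1 point per gene grouped by role, with the group median as a line and filled points for an adjusted p under 0.05. The core points lie lowest in C50 (median -0.54), and the 2 inducible subunits are filled and above 0 in C11.

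Whether these clone-by-clone changes differed was tested by the interaction of fraction and clone. None of the 48 genes passed limma's moderated F-test, against 0.869% of all genes, while 10 of 48 had an unadjusted p under 0.05. The lowest adjusted p was 0.112, for Psmc3ip, and those of Psmb9 and Psmb10 were 0.223 and 0.382. Without C50 GFP-negative replicate 2, 23 of 48 passed, against 38.6% of all genes, and without replicate 1 of that group 0 passed, against 2.49%, with 7 at an unadjusted p under 0.05. That replicate 1 has the high core sum and the 8.32% ribosomal-protein share given above. Without it, 26 genes were called within C50 (23.7% of all genes), 10 in C1 (15.9%), 15 in C11 (17.7%) and 22 in C43 (29.6%), so the shares of all genes called in C1, C11 and C43 rose too. Without replicate 2 the counts were 35 in C50 (52.2%), 9 in C1 (16.03%), 15 in C11 (17.8%) and 22 in C43 (29.8%). In C1 the count was 1 without either of its GFP-negative libraries or its GFP-positive replicate 1 (2.87% to 4.51% of all genes). In C11 it was 3 and 1 without GFP-negative replicate 1 and 2, and 2 and 1 without GFP-positive replicate 1 and 2 (2.42% to 2.83%). In C43 it was 3 without either GFP-negative library or GFP-positive replicate 2 (6.58% to 9.09%), and 6 without C11 GFP-positive replicate 1 (13.1%). Without C50 GFP-positive replicate 2, 17 were called in C50 (13.7% of all genes), and with the libraries of C50 alone 0 were called (0.169%). In the pooled comparison, leaving out the replicate 1 library gave 33 called genes, 30 lower and 3 higher, against 46.0% of all genes. Leaving out the whole clone gave 27 lower and 3 higher, against 40.0%, so calls became more frequent over all genes as well. The part of the ribosomal-protein share in these results was not tested.

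Clones also differed from each other when the fractions were averaged. By limma's moderated F-test 25 of the 48 genes passed, against 31.6% of all genes, and with median-ratio scaling 13 passed, against 34.6%. The 3 smallest p-values belonged to Psmd6, Psmb9 and Psmc6. By pair of clones, 11 genes were called between C11 and C1 (21.8% of all genes), 18 between C43 and C1 (25.7%) and 16 between C50 and C1 (24.1%). Between C43 and C11 2 were called (4.72%), between C50 and C11 7 (8.69%) and between C50 and C43 7 (8.58%). C1 was thus a member of the 3 pairs with most calls, among the 48 genes as over all genes. It was the lower one for 8, 17 and 13 of those genes, and the direction of the calls over all genes was not counted. These p-values were adjusted over genes and not over the 6 pairs. The count of 25 became 38 without C50 GFP-negative replicate 2, where 60.8% of all genes passed. With 21.7% to 26.02% of all genes passing, it became 14 without C1 GFP-positive replicate 1 or either C50 GFP-positive library, 15 without C11 GFP-positive replicate 2, and 16 without either C1 GFP-negative library, C1 GFP-positive replicate 2, C11 GFP-negative replicate 2, C11 GFP-positive replicate 1 or either C43 GFP-negative library.

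Psmd6, a lid subunit of the 19S particle, had C1 libraries at 137 and 135 TPM (GFP-negative) and 114 and 118 TPM (GFP-positive), and C50 libraries at 170.0 and 166 and 115 and 115 TPM. It was at 105 and 105 and 95.7 and 89.8 TPM in C11, and at 99.3 and 99.2 and 90.2 and 88.2 TPM in C43. All 8 libraries of C1 and C50 were above all 8 of C11 and C43. The means were 141 in C50, 126 in C1, 99.0 in C11 and 94.2 TPM in C43 (adjusted p = 6.95e-05), and the neighbours C50 and C1 (adjusted p = 0.0928) and C11 and C43 (0.570) did not pass, although the GFP-negative libraries of C50 were all above those of C1. Psmc6, an ATPase of the ring, had 165 and 165 and 126 and 139 TPM in C50, 154 and 141 and 124 and 122 in C1, 133 and 132 and 112 and 111 in C43, and 113 and 120.4 and 88.1 and 80.9 TPM in C11, GFP-negative libraries first. C11 was lowest in either fraction, and its mean of 101 TPM differed from the 122 TPM of its neighbour C43 (limma adjusted p = 0.0288). The means of C50 (149), C1 (135) and C43 were not separated between neighbours (0.166 and 0.127), while C50 and C43 were (0.0207). For Psmb9 the clone means were 9.01 in C43, 6.01 in C11, 5.83 in C1 and 2.03 TPM in C50. C50 was below each of the others (adjusted p = 0.000116 against C43, 0.0026 against C11 and 0.000726 against C1), and the other 3 were not separated.

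Genes that work with the proteasome under other names moved partly with it. Of 12 proteasome partners 11 were tested between the fractions, 5 were lower (23.2% of all genes) and 1 was higher (12.1%), with a median log2 change of -0.21. Pomp, the chaperone that matures the beta rings, was at 229 and 179 TPM in C1, 121 and 119 in C11 and 125 and 166 in C43, with 200.2 and 151 TPM in C50 in GFP-negative cells. In GFP-positive cells it was at 120.1 and 110.4 TPM in C1, 104 and 104 in C11 and 130.4 and 128 in C43, with 92.6 and 105 TPM in C50. The GFP-positive libraries were lower in C1, C11 and C50 and overlapped the others in C43, and Pomp fell by 0.50 ± 0.113 (limma adjusted p = 0.00332), a call that was lost with the length correction (0.0530) and with clone means (0.0561). Uchl5, a deubiquitinase of the 19S particle, fell by 0.43 (0.000386), Txnl1, a thioredoxin bound to it, by 0.25 (0.00184) and Adrm1, a ubiquitin receptor, by 0.28 (0.00829). The call of Adrm1 was lost in 5 of 31 alternatives (adjusted p up to 0.109), and its change was -0.16 with the length correction. Sem1, a small lid subunit named after its value was seen, fell by 0.37 (0.0179), while Zfand5, an activator of the proteasome, rose by 0.53 (3.04e-05). The 15 genes for ubiquitin, its activating enzymes and shuttle factors had a median log2 change of -0.06 between the fractions. In WT cells, where 8.88% of all genes were called, 1 of the 11 partners was, the importin Ipo9, which fell by 0.80 (0.00209), and Pomp (-0.04) and Adrm1 (0.10) did not pass. By limma 0 of the 15 ubiquitin genes were called in WT cells, and 2 had an unadjusted p under 0.05.

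The transcription factors of proteasome genes were mixed. Of 9 regulators 3 were higher (12.1% of all genes) and 1 was lower (23.2%) in GFP-positive cells, with a median of -0.02. Nfe2l1 was at 71.5 and 108 TPM in C1, 109 and 117 in C11 and 115 and 131 in C43, with 64.4 and 92.7 TPM in C50 in GFP-negative cells. In GFP-positive cells it was at 119.7 and 116 TPM in C1, 124 and 150.1 in C11 and 144 and 144 in C43, with 169 and 148 TPM in C50. GFP-positive libraries were the higher ones within every clone, most of all in C50, and Nfe2l1 rose by 0.48 ± 0.124 (limma adjusted p = 0.00692, with clone means 0.0617). Nfe2l2, its relative in the oxidative stress response, rose by 0.42 (0.000362) and Ngly1, the deglycosylase that activates the Nfe2l1 protein, by 0.34 (0.0345), whereas Nfyb, a subunit of the CCAAT-binding factor, fell by 0.58 (1.08e-05). In WT cells 0 of the 9 passed limma, and 4 had an unadjusted p under 0.05. Nfe2l1 was at 117, 94.2 and 98.6 TPM without and 123, 146 and 114 TPM with dDAVP there, with a log2 change of 0.30 ± 0.120 (adjusted p = 0.143), which became 0.47 (0.0372) with median-ratio scaling and 0.56 (0.00578) with the length correction.

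**Figure D5:**
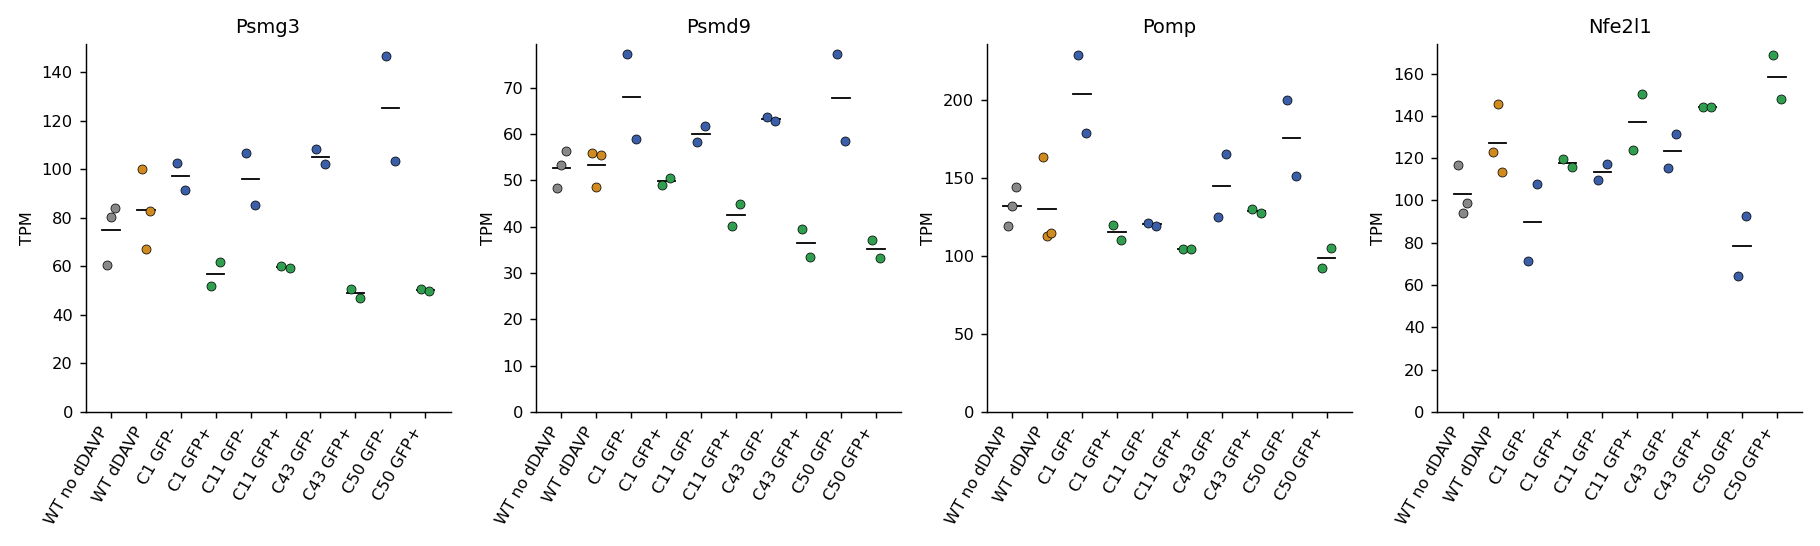
TPM per library (points) and group mean (lines) of the assembly factors Psmg3, Psmd9 and Pomp and of the transcription factor Nfe2l1 in the 10 groups, 3 libraries per WT group and 2 per clone and fraction. Psmg3 and Psmd9 lie lower in GFP-positive than in GFP-negative libraries of every clone, and Nfe2l1 lies higher.

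Interferon and antigen presentation genes, some of which are induced together with the immunoproteasome, were mixed. Of 9 interferon-pathway genes 8 were tested, with a median log2 change of 0.11 in GFP-positive against GFP-negative cells. Irf1, the transcription factor that induces Psmb9 and Tap1, was at 34.0 and 41.6 TPM in C1, 64.8 and 65.0 in C11 and 62.0 and 69.6 in C43, with 30.6 and 42.6 TPM in C50 in GFP-negative cells. In GFP-positive cells it was at 42.3 and 45.3 TPM in C1, 90.3 and 89.7 in C11 and 95.1 and 108 in C43, with 65.3 and 62.9 TPM in C50. Its fractions did not overlap within any clone, and Irf1 rose by 0.53 ± 0.092 (limma adjusted p = 0.000444). The receptor Ifngr1 fell by 0.31 (0.00172). Of 11 class I genes 2 were lower and 2 were higher, against 23.2% and 12.1% of all genes. The higher ones were the peptide transporter Tap2 by 0.42 (0.0380) and the chaperone Canx by 0.31 (0.0263). The class I heavy chain H2-K1 fell by 0.79 (1.5e-05) and its light chain B2m by 0.58 (0.000831), and the median of the list was 0.21. Tap1 had a log2 change of 0.20 (0.184), which passed with median-ratio scaling (0.27, 0.0391), quantile normalization (0.30, 0.0219), the length correction (0.26, 0.0392) and without C43 GFP-positive replicate 2 (0.27, 0.0359). In WT cells, Tap2 fell by 0.60 (0.0489), Tap1 had -0.46 (0.0937) and Irf1 -0.01 (0.930). Without WT dDAVP replicate 2 Tap1 was called lower (-0.58, adjusted p = 0.0435).

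Some markers of other cell types moved with the fractions. Csf1r fell by 0.57 in GFP-positive cells (10.7 ± 2.05 against 16.6 ± 4.08 TPM, SD, n = 8), Atp6v1b1 rose by 0.81 (77.7 ± 21.8 against 46.3 ± 20.1 TPM) and Lrp2 by 0.56 (8.61 ± 4.69 against 5.94 ± 4.01 TPM). Of the 9 principal-cell markers tested 6 were higher (12.1% of all genes) and 1 was lower (23.2%). Their part in the proteasome results was not tested.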

How the data were processed

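RNA of 22 libraries was turned into cDNA with SMART-Seq HT and sequenced paired-end after Nextera XT preparation, per the labels' protocols. The submitters' processing notes name STAR and RSEM; genome build and annotation are not given in the sources used here. The authors deposited 1 table of TPM for 54514 gene entries after 980 lines that share 79 symbols were summed here; 0 per-sample columns were left unmapped, and the depth is unknown. The members and gene lists were chosen with earlier results of these data known.

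Genes with a mean of at least 1 TPM were tested with limma 3.58.1 (statmod 1.5.0, R 4.3.3) on log2(TPM + 1) with a trended prior, separately in 6 WT and 16 clone libraries, the latter with clone as a covariate. A model of group means gave contrasts within and between clones and the interaction. Log2 changes are on this scale, which understates changes of low genes. Benjamini-Hochberg adjustment ran over all genes tested; genes with adjusted p under 0.05 are called. Named outside the 48 were Nfe2l1, Pomp, Adrm1, Tap1, Irf1 and up to 4 called genes per list with the lowest p. Same-numbered libraries were not treated as pairs. Alternatives were a pseudocount of 0.1, other filters, median-ratio and quantile scaling, other moderation, a replicate block, left-out libraries and clones, and, added after the data were seen, a lowess correction (span 0.3) for the longest coding transcript of GENCODE M21. Some results for genes of the lists are not reported here. The fitting code was tested on simulated data.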

Additional observations from a re-analysis of the deposited data

Results flagged for a closer look

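In 16 quantities examined over the 8 libraries of each fraction (32 sets), 5 sets had 1 library far from the other 7, and in all 5 it was C50 GFP-negative replicate 1. Chance marks about 5% of such sets. Among the 8 GFP-negative libraries, to which every next value below belongs, it had the highest summed 20S core, 6852 TPM with the next at 5390.5 TPM, and the highest ratio of the 20S to the 19S sum, 1.96 with the next at 1.496. Its Psmb5 was 580.4 TPM with the next at 417 TPM, and its Psmg3 was 147 TPM with the next at 108 TPM. Ribosomal-protein transcripts took 8.32% of its TPM, with the next at 5.34% there and the highest of the other libraries at 6.12% (WT dDAVP replicate 1). The highest 20S to 19S ratio outside that fraction was 1.54 (C43 GFP-positive replicate 1). The cause was not tested.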

How the results depend on the processing

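Of the 48 genes, the 28 called between the fractions became 17 with median-ratio scaling and 12 with clone means, and 27 to 33 with 1 library left out. The 1 called in WT cells became 0 with every gene above 0 TPM tested, quantile normalization, no trend or without Psmc3ip (also without Psme3ip1), 1 higher in place of 1 lower with median-ratio scaling, 4 with genes detected as a covariate (3 higher, 1 lower), 3 with the length correction (2 higher, 1 lower), and 0 to 3 with 1 library left out. Same-numbered libraries did not deviate together (mean correlation -0.114 in WT cells and 0.0887 in the clones), so the numbers were not treated as pairing; with the replicate block the counts were 0 in WT cells and 29 between the fractions. The 25 genes differing between clones became 13 with every gene above 0 TPM tested (7.46% of all genes), 13 with median-ratio scaling (34.6%), 15 without the trend (29.9%), and 14 to 38 with 1 library left out. The 3 called in C1 became 0 with median-ratio scaling (1 to 10 with 1 library left out) and the 6 in C11 became 3 (1 to 15). The 10 in C43 became 4 with every gene above 0 TPM tested, 2 with median-ratio scaling and 6 without the trend (3 to 22). The 29 in C50 became 0 with that clone alone (17 to 35), and the interaction's 0 became 0 to 23 with 1 library left out. With median-ratio scaling 989 of 13113 genes were called in C1, 994 in C11 and 2084 in C43, against 947, 1041 and 2134 without it. The median over the 48 genes went from -0.23 to -0.11 with the length correction in the fractions. That of all genes went from -0.06 to 0.003 there. In WT cells the median over the 48 genes went from 0.07 to 0.24 with median-ratio scaling. Uncalled WT changes turned sign: Irf1 to 0.15 with median-ratio scaling, 0.13 with quantile normalization and 0.0915 with the length correction (-0.095 to 0.0502 with 1 library left out), Pomp to 0.13, 0.00717 and 0.19, and to 0.043 with genes detected as a covariate (-0.21 to 0.057), and Psmb10 to between -0.0541 and 0.0942 with 1 library left out. Where fewer libraries or genes entered, the alternative itself differs in that; otherwise the cause was not tested. TPM keep no depth, so what depth limits is unknown.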
